A study of Mus musculus with 6 samples.

Results

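The genes described here code for the machinery that carries membrane vesicles to the apical surface of epithelial cells. They comprise 38 genes of apical transport: Rab GTPases, the effectors and motors that Rabs recruit, SNAREs and their regulators, sorting proteins, and TBC domain proteins, which act on Rabs. All 38 were measured, among 19938 genes tested, and no filter on level removed any. The set is a list of named genes, chosen by function with the differences between these same arrays already known, and each gene was taken where an array feature carried its symbol alone. Rab11b and Sytl5 had several features, and the one with the highest mean over all 6 arrays was used. Because these differences were known when the genes were chosen, their counts, folds and p-values describe the list and support no claim about it.

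Bladders were taken from mouse embryos at the stage labelled E14.5. In 1 group the genotype is given as Klf5 ∆/∆, a deletion of the transcription factor gene Klf5 on both alleles, here called Klf5-deleted. The control group is Klf5+/+ShhGfpCre+, with intact Klf5 and a Cre recombinase expressed from the Shh locus, which is active in bladder epithelium. Each group had 3 samples, and each sample pooled 2 bladders and was hybridised to its own Affymetrix Mouse Gene 1.0 ST array. The label of the Klf5-deleted group names no Cre allele, and the labels do not say whether pools came from separate litters, so that p-values measure the spread between these pools. The sample source is written as urothelium, but the extraction protocol used whole bladders, and 8 smooth muscle markers had array means of 11.70 to 12.29 (log2).

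A Rab GTPase marks a vesicle and, when bound to GTP, recruits effectors that link the vesicle to a motor, often a class V myosin, or to the plasma membrane, where SNARE proteins fuse the membranes. In umbrella cells, the surface cells of the urothelium, this route brings uroplakin plaques to the apical membrane in fusiform vesicles and takes them back by endocytosis. Rab27b and Mal are known from this traffic of uroplakins, and Rab8, Rab11 and myosin Vb act in exocytosis of these vesicles.

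Of the 38 transport genes 13 fell in the Klf5-deleted bladders and none rose past an adjusted p of 0.05 by limma, a linear model that shares the estimate of spread across genes. At an unadjusted p under 0.05 by limma, 20 were lower and 3 higher, against 8.08% and 6.34% of all genes tested. Over all genes tested 1.59% fell (318) and 0.386% rose (77) by the adjusted rule; with each array centred on its median these were 273 and 116, and 10 of the 38 genes fell. Mal, Snx31, Rab27b, Rab25 and Ap1m2 fell by more than 2-fold. Tbc1d30, Sytl2, Rab17, Myo5c, Myo5b, Sytl5, Tbc1d2 and Tbc1d10a fell by less. The median log2 difference (Klf5-deleted minus control) was -0.29 over the 38 genes and -0.01 over all genes tested. Every Klf5-deleted array lay below every control array for 20 of the 38 genes, against 11.8% of all genes, and above every control array for 2, against 8.67%. Without 1 array the number that fell was 5 (without Klf5-deleted 1), 6 (Klf5-deleted 2), 9 (Klf5-deleted 3), 7 (control 1), 14 (control 2) or 9 (control 3). Over all genes tested the falls in these fits numbered 124, 149, 205, 146, 285 and 232 in the same order, against 318 with all arrays. Mal, Snx31, Rab27b, Rab25 and Ap1m2 fell past the threshold in each of these 6 fits.

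**Figure D1:**
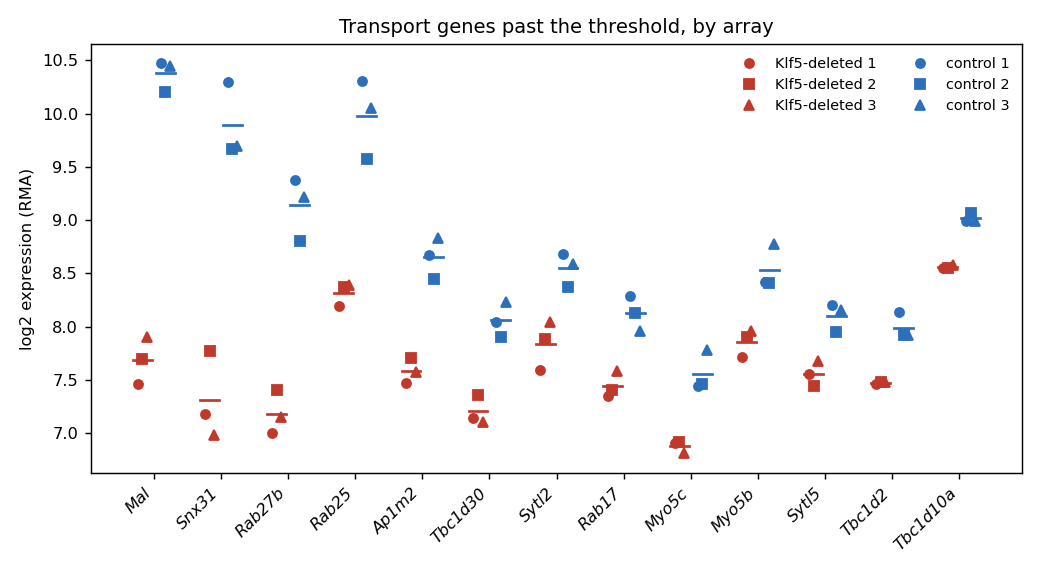
Log2 expression (RMA, vertical axis) on each array of the 13 transport genes that fell, ordered by the size of the fall; red symbols are Klf5-deleted and blue symbols control arrays, symbol shapes give the replicate number, and bars are group means of 3 arrays. In each gene the 3 red symbols lie below the 3 blue ones, with the widest gap for Mal (7.46 to 7.90 against 10.20 to 10.47).

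The promoters of Mal, Rab25 and Ap1m2, the genes with a fall of more than 2-fold for which a sequence was at hand, are shown because these genes moved together. Each is the 250 bases before the annotated start of the transcript, written 5′ to 3′ on the gene's strand, from RefSeq on build GRCm38.p6: Mal on chromosome 2 (minus strand, chr2:127656696-127656945), Rab25 on chromosome 3 (minus strand, chr3:88548280-88548529) and Ap1m2 on chromosome 9 (minus strand, chr9:21312334-21312583). Capitals mark CACCC or its reverse complement GGGTG, a core of the sites that Krüppel-like factors such as Klf5 bind, searched after the data had been seen.

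Mal: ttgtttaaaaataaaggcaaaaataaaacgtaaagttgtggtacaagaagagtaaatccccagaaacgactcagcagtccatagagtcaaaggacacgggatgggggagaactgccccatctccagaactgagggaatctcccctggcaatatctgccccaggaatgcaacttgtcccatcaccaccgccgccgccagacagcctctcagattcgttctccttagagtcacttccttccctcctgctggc

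Rab25: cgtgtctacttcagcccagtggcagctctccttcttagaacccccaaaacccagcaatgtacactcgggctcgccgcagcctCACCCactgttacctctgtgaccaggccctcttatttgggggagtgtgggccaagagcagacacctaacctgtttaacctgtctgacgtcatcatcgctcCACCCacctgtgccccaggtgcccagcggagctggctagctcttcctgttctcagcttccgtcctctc

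Ap1m2: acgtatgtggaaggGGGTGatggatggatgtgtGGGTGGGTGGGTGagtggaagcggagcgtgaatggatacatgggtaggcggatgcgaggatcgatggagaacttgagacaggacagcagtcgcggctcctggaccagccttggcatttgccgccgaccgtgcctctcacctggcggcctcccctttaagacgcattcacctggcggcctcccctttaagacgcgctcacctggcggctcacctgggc

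The core occurred 2 times in the Rab25 stretch, 4 times in that of Ap1m2, where 3 copies overlap by a base in a run of GGGTG repeats, and 0 times in that of Mal. Windows of 300 bases (250 before to 50 after the start) were found by symbol for 28 of the 38 genes, 34 windows in all, and none was at hand for Mal2, Snx31, Rab27b, Rab38, Rab11fip1, Myo5b, Sytl2, Vamp3, Vps33b and Tbc1d30. Searched on both strands, the core was in 6 of 8 windows of genes that fell (75%), in 19 of 26 windows of the genes not past the threshold (73.1%) and in 57.5% of all 32851 windows. The longer GC-box spelling GGGNGGGG was in 1 of the 8 windows, that of Tbc1d10a, in 12 of the 26 (46.2%) and in 33.2% of all. CCACACCC, which contains the core, was in 0 of the 8, in 2 of the 26 and in 3.56% of all windows. The 34 windows found were richer in G and C (median 58.3%) than all windows (52.7%). In 87 windows of other transport genes, listed below, the median was 62% and the core was in 51 (58.6%). A match is a description of letters, and a window without one says only that these letters are not in it.

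The largest falls were in the sorting proteins. Mal, a small membrane protein of lipid rafts that is needed for apical sorting, read 7.46, 7.70 and 7.90 (log2) on the Klf5-deleted arrays and 10.47, 10.20 and 10.45 on the control arrays. The groups were far apart relative to their spread: Mal was 6.45-fold lower (log2 difference -2.69, 95% confidence interval -2.98 to -2.40, adjusted p = 0.000649 by limma). Its relative Mal2, which acts in transcytosis to the apical surface, read 8.83, 9.59 and 9.25 against 10.22, 9.92 and 10.36. These groups did not overlap either, but the 3 Klf5-deleted arrays varied more (SD 0.38) and the difference of -0.94 (-1.40 to -0.48) missed the threshold, with an adjusted p of 0.0696 by limma.

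Snx31, a sorting nexin of umbrella cells that binds uroplakins on endosomes, read 7.18, 7.77 and 6.98 in the Klf5-deleted group and 10.30, 9.67 and 9.70 in controls. It was 5.98-fold lower (log2 difference -2.58, -3.13 to -2.02, adjusted p = 0.00303 by limma), although its values varied more within each group (SD 0.41 and 0.35) than those of Mal (SD 0.22 and 0.15). Ap1m2 codes for the epithelial medium subunit of the AP-1 clathrin adaptor, which is best known for sorting to the basolateral side and so does not match the word apical. Its log2 levels were 7.47, 7.71 and 7.57 against 8.67, 8.45 and 8.83, and it fell by 1.07 (-1.33 to -0.81, adjusted p = 0.00516 by limma).

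Among the Rabs of regulated secretion the fall was in Rab27b. This GTPase sits on fusiform vesicles of umbrella cells and read 7.00, 7.41 and 7.15 in the Klf5-deleted group and 9.38, 8.80 and 9.22 in controls. The groups were well separated, and Rab27b was 3.87-fold lower (log2 difference -1.95, -2.34 to -1.57, adjusted p = 0.00235 by limma). Rab27a, its close relative of melanosomes and lytic granules, read 8.54, 9.02 and 8.66 against 9.01, 8.92 and 8.42, and the groups overlapped (difference -0.04, -0.47 to 0.38). Rab3d, a Rab of secretory granules, differed by -0.45 (-0.72 to -0.18; limma's adjusted p 0.121), and its groups did not overlap. Rab27b is also known from platelets. The array means of 5 platelet markers were 8.04 to 8.51 in the Klf5-deleted group and 8.15, 9.07 and 8.33 in controls 1, 2 and 3, and their part in the Rab27b reading was not tested. Without control 2, the array highest in these markers, Rab27b differed by -2.12 (limma's adjusted p 0.000463). Control 2 was also the lowest control array for Rab27b (8.80), so leaving it out widens the difference whatever the cause.

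Of the recycling Rabs, the epithelial members fell. Rab25, the epithelial form of the Rab11 subfamily, read 8.19, 8.37 and 8.39 against 10.31, 9.57 and 10.05 in controls, with control 2 the lowest of its group. Rab25 was 3.16-fold lower (log2 difference -1.66, -2.07 to -1.25, adjusted p = 0.00538 by limma). Rab17, an epithelial Rab of transcytosis and apical recycling, read 7.35, 7.41 and 7.58 against 8.29, 8.13 and 7.96 and fell by 0.68 (-0.92 to -0.44, adjusted p = 0.0216 by limma). Leaving out Klf5-deleted 1, Klf5-deleted 2 or control 1 ended the call of Rab17 (limma's adjusted p 0.103, 0.0909 and 0.0672).

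The widely expressed forms Rab11a and Rab11b, which mark recycling endosomes in most cells, differed by -0.13 (-0.39 to 0.12) and -0.09 (-0.27 to 0.08), and their groups overlapped. The feature of Rab11b that was not chosen differed by -0.03. Rab15, a Rab of early and recycling endosomes, read 9.96 to 10.14 in the Klf5-deleted and 10.31 to 10.61 in the control group, with a difference of -0.40 (-0.62 to -0.18, adjusted p = 0.0945 by limma).

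None of the 4 Rabs that act between the Golgi and the plasma membrane passed the threshold. Rab8a, Rab8b, Rab10 and Rab13 differed by -0.04, 0.11, -0.01 and 0.01, and in each the groups overlapped. Their 95% confidence intervals lay within -0.25 (Rab13) and 0.28 (Rab8b and Rab13). Rab32 and Rab38, which serve melanosomes and other lysosome-related organelles, differed by 0.21 (-0.08 to 0.50) and -0.08 (-0.35 to 0.18). The array means of 6 melanocyte markers overlapped between the groups, at 6.61 to 6.74 and 6.62 to 6.75.

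**Figure D2:**
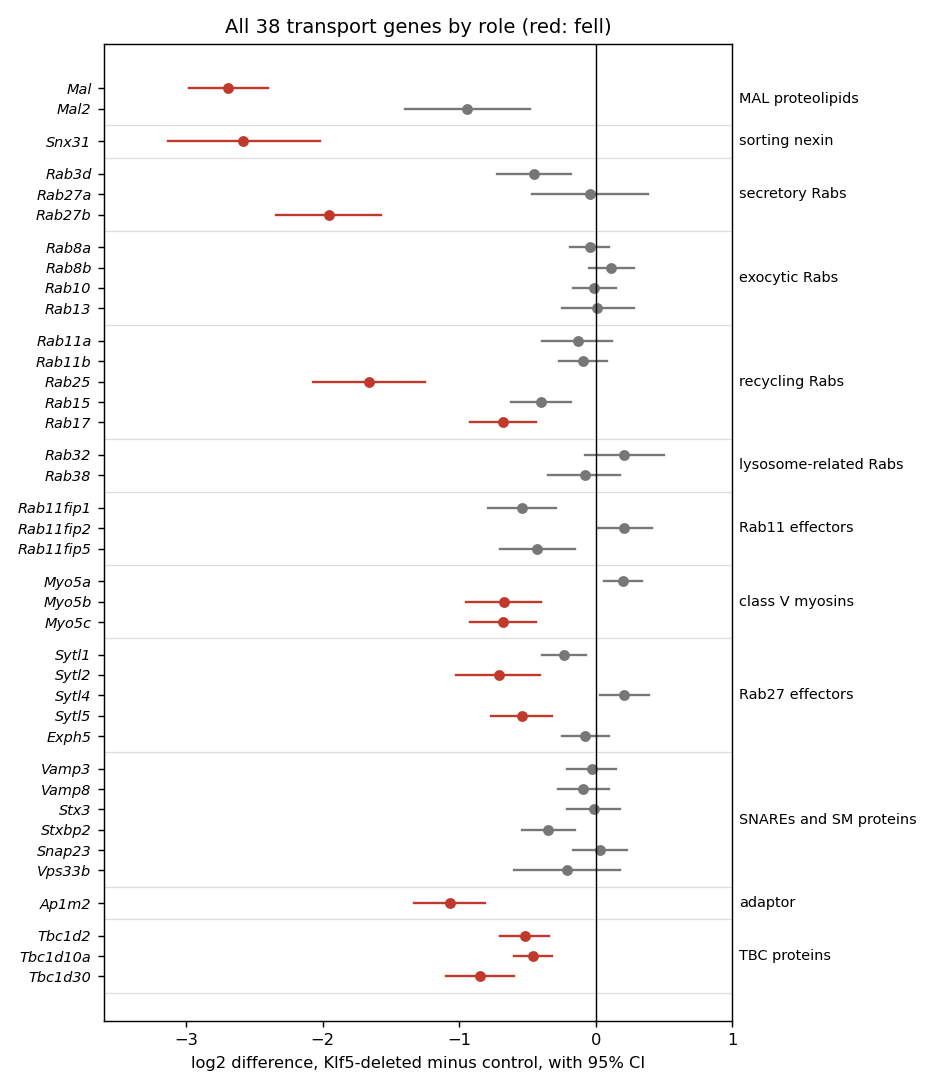
Log2 difference (Klf5-deleted minus control, horizontal axis) of the 38 transport genes, grouped by role, with bars for limma's 95% confidence interval over 3 arrays a group; red genes fell past an adjusted p of 0.05 and grey genes did not pass. The red genes range from -2.69 (Mal) to -0.46 (Tbc1d10a), and no gene lies above 0.21.

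The class V myosins, motors that pull vesicles along actin, divided by gene. Myo5b, the partner of Rab11 and Rab25 in epithelia, read 7.72, 7.90 and 7.96 in the Klf5-deleted group and 8.42, 8.41 and 8.78 in controls. Myo5c, an epithelial form found in glands, read 6.91, 6.92 and 6.81 against 7.44, 7.46 and 7.78. Both fell, Myo5b by 0.67 (-0.95 to -0.40, adjusted p = 0.0377 by limma) and Myo5c by 0.68 (-0.92 to -0.44, adjusted p = 0.0216 by limma), and the groups did not overlap. Myo5a, the form of neurons and melanocytes, read 9.87, 9.88 and 9.80 against 9.64, 9.64 and 9.68, a difference of 0.20 in the other direction (0.06 to 0.34) that did not pass (adjusted p = 0.189 by limma).

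Myo5b passed only without control 2 (adjusted p = 0.0413 by limma) among the 6 fits that left out an array, with adjusted p of 0.0569 to 0.148 in the others. Myo5c passed without control 2 or control 3, with adjusted p of 0.0527 to 0.0929 in the others. Their differences stayed between -0.74 and -0.55.

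The effectors of Rab11, which tie it to myosin V, did not pass. Rab11fip1 read 8.75, 8.70 and 8.91 against 9.43, 9.12 and 9.43 and differed by -0.54 (-0.79 to -0.29, adjusted p = 0.0549 by limma), just outside the threshold, and passed without control 2 (-0.64, adjusted p = 0.0168 by limma), with the lowest 25% of genes by level left out (0.0436) and with the trend and robust prior (0.0398). Rab11fip5 differed by -0.43 (-0.70 to -0.15), also with groups apart, and Rab11fip2, the FIP that binds myosin Vb, by 0.21 (0.01 to 0.41) with overlapping groups.

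Effectors of Rab27 were mixed. Synaptotagmin-like proteins dock Rab27 vesicles at the plasma membrane. Sytl2 read 7.59, 7.88 and 8.04 in the Klf5-deleted and 8.68, 8.37 and 8.59 in the control group, and fell by 0.71 (-1.02 to -0.41, adjusted p = 0.0418 by limma). Sytl5 read 7.56, 7.44 and 7.68 against 8.20, 7.95 and 8.16, and fell by 0.54 (-0.77 to -0.32, adjusted p = 0.0385 by limma). The feature of Sytl5 that was not used read 7.14, 7.07 and 7.19 against 7.78, 7.54 and 7.77, a difference of -0.56, with groups likewise apart. Sytl2 kept its call only without Klf5-deleted 3 or control 2, and Sytl5 only without control 2, among fits without 1 array; the other fits gave adjusted p by limma of 0.109 to 0.157 for Sytl2 and 0.0573 to 0.149 for Sytl5.

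Sytl4 (granuphilin), an effector of endocrine granules, read 8.21, 8.43 and 8.28 against 8.13, 8.10 and 8.06, a difference of 0.21 (0.03 to 0.39) that did not pass (adjusted p = 0.27 by limma). Sytl1 differed by -0.23 (-0.39 to -0.07, adjusted p = 0.181 by limma). Exph5, a Rab27 effector of skin, differed by -0.08 (-0.25 to 0.10).

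The SNAREs and their regulators, which carry out membrane fusion in nearly all cells, held no gene past the threshold. Vamp3 and Vamp8, SNAREs of vesicles, differed by -0.03 and -0.09. Snap23 and Stx3, SNAREs of the target membrane, differed by 0.03 and -0.01. The groups overlapped in all 4. Stxbp2, a Munc18 protein that assists Stx3, read 9.89, 9.82 and 9.62 against 10.16, 10.12 and 10.09 and differed by -0.35 (-0.54 to -0.15, adjusted p = 0.101 by limma), with groups apart. Vps33b, which with Vipas39 serves apical recycling, differed by -0.21 (-0.60 to 0.18). Vipas39 itself differed by 0.18 (0.01 to 0.35), so that these partners lay on opposite sides of 0 and neither passed.

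All 3 genes with a TBC domain, the domain of GTPase-activating proteins of Rabs, fell. Tbc1d30 read 7.14, 7.36 and 7.11 against 8.04, 7.90 and 8.23 and fell by 0.85 (-1.10 to -0.60, adjusted p = 0.0105 by limma). Tbc1d2 (Armus), which acts on Rab7, read 7.46, 7.48 and 7.48 against 8.14, 7.92 and 7.92 and fell by 0.52 (-0.70 to -0.34, adjusted p = 0.0216 by limma). Tbc1d10a (EPI64), which acts on Rab27 and Rab35 and lies in microvilli, read 8.55, 8.55 and 8.58 against 8.99, 9.07 and 8.99. Tbc1d10a had the smallest fall of the 13 genes, 0.46 (-0.60 to -0.32, adjusted p = 0.0123 by limma), and SDs of only 0.02 and 0.05.

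The call of Tbc1d30 was lost when Klf5-deleted 1 or control 1 was left out (limma's adjusted p 0.0643 and 0.053), and that of Tbc1d10a when Klf5-deleted 1 or 2 was (0.069 and 0.0517). Tbc1d2 passed only without control 1 or control 2, with adjusted p by limma of 0.0517 to 0.103 in the fits where it did not pass.

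Several genes that fell have a relative of the same family among the measured genes. Since the genes were known to have fallen when these comparisons were drawn up, the differences are a description without a test. For 13 combinations the log2 reading of the relative was subtracted from that of the gene on each array, and in all 13 every Klf5-deleted array lay below every control array. Rab27b minus Rab27a was -1.54, -1.61 and -1.52 on the Klf5-deleted arrays and 0.37, -0.12 and 0.81 on controls. Mal minus Mal2 was -1.37, -1.89 and -1.36 against 0.26, 0.29 and 0.09. These subtracted readings compare features of unlike brightness, so only their change between groups has meaning, and it was -1.91 for Rab27b and -1.75 for Mal. For Rab25 the change was -1.52 relative to Rab11a and -1.57 relative to Rab11b. Relative to Myo5a it was -0.87 for Myo5b and -0.88 for Myo5c, and relative to Sytl4 it was -0.92 for Sytl2 and -0.75 for Sytl5. Sytl4 was the Rab27 effector with a positive difference, and relative to Sytl1 (-0.23) the changes were smaller, -0.48 for Sytl2 and -0.31 for Sytl5.

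The remaining combinations set a gene beside a relative outside the 38. Ap1m1, the medium subunit of AP-1 in all cells, differed by -0.02 (-0.19 to 0.16), and Ap1m2 changed by -1.05 relative to it. Tbc1d10b differed by -0.08 and Tbc1d2b by -0.11, and relative to them Tbc1d10a changed by -0.38 and Tbc1d2 by -0.41.

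**Figure D3:**
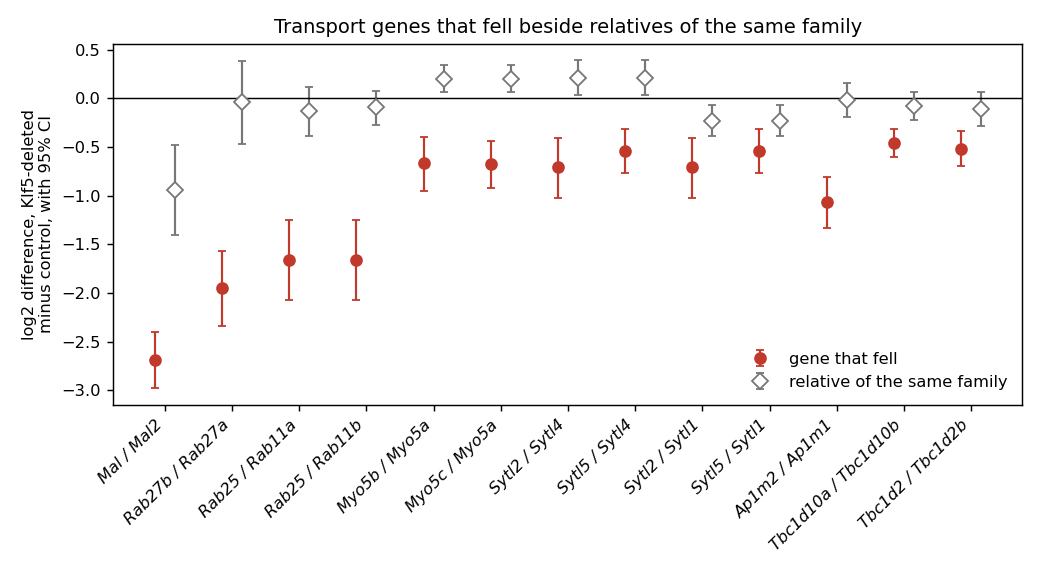
Log2 difference (Klf5-deleted minus control, vertical axis) with limma's 95% confidence interval for genes that fell (red circles) and for a relative of the same family (open grey diamonds), in 13 combinations; Rab25, Myo5a and the Sytl genes appear in 2 combinations each. The relatives lie between -0.94 (Mal2) and 0.21 (Sytl4), each above the gene it is drawn with.

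None of 81 other transport genes passed the threshold in the fit reported here. They are the measured members of a list of 84 other genes of the route, written by role. That list was drawn up with earlier results of these data known, and it leaves out the transport genes described above. Its counts therefore describe the list and support no claim about it. By limma 0 of the 81 fell and 0 rose, against 1.59% and 0.386% of all genes tested, and their median difference was 0.00. At an unadjusted p under 0.05 by limma 4 were lower and 5 higher, against 8.08% and 6.34% of all genes tested. Limma with a prior variance that follows the level and is robust to outliers called 1, Vamp4, as did centring each array on its median. Vamp4, a SNARE of the trans-Golgi network, had an adjusted p of 0.0635 in the fit reported here, with a difference of 0.46 (0.24 to 0.68). The largest negative difference was -0.62 (-1.11 to -0.14, adjusted p = 0.228 by limma) for Ap1s3, a small subunit of AP-1. The 9 exocyst genes, which tether vesicles at the plasma membrane, differed by -0.07 to 0.25. Among 24 other Rabs the range was -0.25 (Rab3b) to 0.21 (Rab22a). The Rab effectors Mlph, Myrip, Sytl3 and Rab11fip3 differed by -0.18, -0.04, -0.10 and 0.02, and Rab3ip, which activates Rab8, by -0.01.

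Most epithelial markers fell, with a median difference of -1.31, beside -0.29 over the 38 transport genes. Of 10 general epithelial markers 8 fell by limma, and of 10 urothelial markers 6 fell. Epcam (-0.39) and Cldn7 (-0.76) did not pass. The array means of the 10 markers were 9.38, 9.84 and 9.69 in the Klf5-deleted group and 10.95, 10.66 and 11.08 in controls, a difference of -1.26. In whole bladders, fewer epithelial cells and less RNA per cell cannot be told apart. Of the urothelial list, the transcription factor Grhl3 fell by 1.38, as did the keratin Krt7 by 1.51 and the 4 uroplakins on the list. The transcription factors Foxa1, Gata3 and Trp63 and the basal keratin Krt5 differed by -0.89, -0.13, -0.24 and -0.10, and none of these passed (Foxa1 had groups apart and an adjusted p of 0.0721 by limma). The uroplakin genes, whose products these vesicles carry, had a median difference of -2.35, with 4 of 5 past the threshold and Upk3b (-0.32) not. Upk3b read 11.20 to 11.92 over the arrays, and the part of cells other than urothelium in its reading was not tested. No gene passed in 11 marker lists of other cell types, although 6 of 8 smooth muscle markers were lower and 4 of 6 skeletal muscle markers higher at an unadjusted p under 0.05 by limma. By the same rule 3 of 8 mesenchymal, 2 of 8 endothelial and 1 of 8 leukocyte markers differed, and none of the platelet, mast cell, melanocyte, neuronal, erythroid and placental markers.

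Set against the mean of the 10 epithelial markers on the same array, the 13 transport genes that fell lay on both sides of it, a description drawn up after the data had been seen and given without a test. Mal, Snx31, Rab27b and Rab25 lay lower, with relative differences of -1.43, -1.32, -0.69 and -0.40, and the groups did not overlap. Single markers spread around that mean. Spint1 (-1.88) and Krt8 (-1.77) fell by more than Rab25 (-1.66), and the other markers differed by -1.52 (Krt18) to -0.39 (Epcam). The other 9 lay higher, with relative differences of 0.19 (Ap1m2) to 0.80 (Tbc1d10a), again with groups apart. Every transport gene not past the threshold also lay higher with groups apart, from 0.32 (Mal2) to 1.47 (Rab32, Rab11fip2 and Sytl4). The marker mean itself differed by -1.26, so a gene that changed little lies higher by this measure. Whether cells other than epithelium contributed to the readings of the 13 genes was not tested.

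The lowest array of each group was mostly the same for the 13 genes that fell and the epithelial markers, and the highest was not. The counts below were not made over all genes tested. Whether the arrays stood in the same order for most genes was therefore not tested. Control 2 was the lowest control array for 10 of the 13 genes that fell and for 9 of the 10 epithelial markers. Klf5-deleted 1 was the lowest array of its group for 8 of the 13 genes and for all 10 markers. The highest control array was control 1 for 8 of the 13 genes and control 3 for 8 of the 10 markers. The highest Klf5-deleted array was Klf5-deleted 3 for 7 of the 13 genes and Klf5-deleted 2 for 8 of the 10 markers. Control 2 also stood apart in placental markers, with an array mean of 10.60 over 3 of them against 5.41 to 7.90 on the other 5 arrays. Without control 2 the median difference of the 38 genes was -0.35, and the part of the placental transcripts in the readings was not tested. Skeletal muscle markers had array means of 9.19 to 10.13 in the Klf5-deleted and 8.50 to 9.50 in the control group, and smooth muscle markers 11.70 to 11.95 and 11.95 to 12.29.

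**Figure D4:**
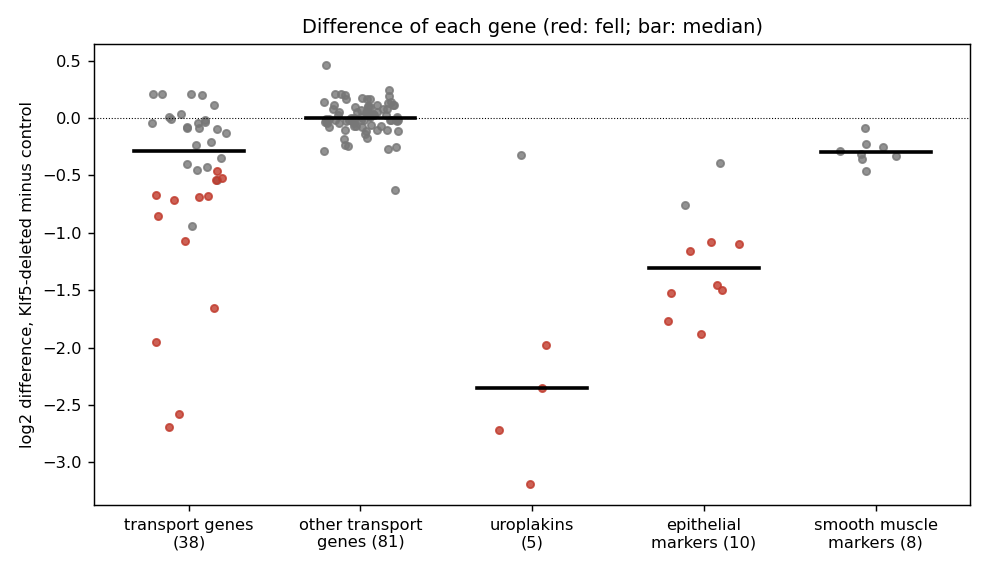
Log2 difference (Klf5-deleted minus control, vertical axis) of each gene in 5 lists, with the number of measured genes under each name; points are genes, spread sideways for view, red where the gene fell past an adjusted p of 0.05 by limma, and black bars are list medians. The 38 transport genes reach from -2.69 to 0.21. The 81 other transport genes centre on 0.00 with none past the threshold, and of all genes tested 1.59% fell and 0.386% rose. Both lists were drawn up with earlier results of these data known.

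Across the series, the deleted gene itself read 10.23 in the Klf5-deleted and 10.81 in the control group on average (difference -0.59, adjusted p = 0.0381 by limma). The sources used do not say whether its probes lie in the deleted part. The samples were whole bladders, and the part of cells other than epithelium in the Klf5 reading was not tested. Within a group, Pearson correlations between arrays were 0.987 to 0.996 over genes, which are not independent replicates. The precision is limited by the number of arrays, 3 a group.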

How the data were processed

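Total RNA of 6 bladder pools was hybridised to 1 array each. The authors deposited log2 expression values made with RMA, per the submitters' processing notes. The log2 scale was inferred from the values (3.24 to 14.6). For RMA's version and for the genome build, the sources used here state nothing. RMA compresses differences of dim features, and no detection calls were used.

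Of 35557 features, 21789 had a single gene symbol in the platform annotation, 1621 several and 12147 none. For 999 genes with several features the one with the highest mean was used, which gave 19938 genes. The difference, Klf5-deleted minus control, came from lmFit and eBayes of limma 3.58.1 (R 4.3.3), a two-sided test with no trend, filter or covariate. P-values were adjusted by Benjamini and Hochberg's method over all 19938 genes, with a threshold of 0.05. The procedure was tested on simulated data.

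The members and all lists were chosen with earlier results of these data known. The genes named were all members, other transport genes past the threshold in any fit, paralogs and partners of members, the uroplakins, Klf5 and markers. Ap1s3, Rab22a, Tbc1d1, Tbc1d2b, Tbc1d4, Tbc1d10b, Tbc1d10c and the combinations of relatives were named after their values were seen, as was the core CACCC. Of the 84 other transport genes listed, 81 had a value used here.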

Additional observations from a re-analysis of the deposited data

How the results depend on the processing

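The 13 alternatives were 2 other centrings, the mean of all features of a gene, leaving out the lowest 25% of genes by level, testing all 35557 features, limma with trend and robust prior, a replicate block, and leaving out each array. Mal, Snx31, Rab27b and Rab25 fell past the threshold in all 13. The number of the 38 genes that fell was 13 in the fit reported, 7 with all features tested (a longer list to adjust over), 4 with the replicate number as a block (replicate block) and 10 with array medians as centre. It was 14 with the trend and robust prior and 5 to 14 without 1 array. Without the lowest 25% of genes Exph5 dropped out, and 14 of the 37 genes left fell. Over everything tested 318 fell in the fit reported, 175 of 35557 features with all features and 105 of 19938 genes under the block. The 4 genes under the block were Mal, Snx31, Rab27b and Rab25, and Ap1m2 had an adjusted p of 0.0505 there by limma. The labels do not say whether arrays with the same number are paired. Their deviations from the group means correlated at 0.01, 0.03 and 0.08 for numbers 1, 2 and 3, beside at most 0.01, 0.00 and -0.01 with another number. The deviations within a group of 3 are tied to each other, so these correlations cannot settle a pairing. Whether same-numbered arrays share a litter or batch was not tested. The genes that fell all kept their direction. The median of the 38 genes (37 without the lowest 25%) was -0.35 to -0.25 in all settings. The other transport genes had 1 gene higher past the threshold, Vamp4, with array medians as centre and with the trend and robust prior.

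The direction of 6 genes near 0 changed, none of them past the threshold in any setting. With array medians as centre Rab10, Vamp3 and Stx3 differed by 0.03, 0.01 and 0.03. Without 1 array the ranges were -0.23 to 0.07 for Rab27a, -0.08 to 0.08 for Rab13, -0.07 to 0.02 for Vamp3, -0.08 to 0.04 for Stx3, -0.05 to 0.03 for Rab10 and -0.03 to 0.07 for Snap23. Centring on 8 measured housekeeping genes left all 13 falls. Of the 34 promoter windows, 14 held either of the longer spellings, 13 held GGGNGGGG and 2 CCACACCC, and 25 held CACCC. Signal over background was not analysed here.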
